A study of Homo sapiens with 12 samples.

Results

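The HOX genes of the 4 human clusters were followed in 2 breast cancer cell lines. Members were all genes with a symbol made of HOX, a cluster letter from A to D and a number, each read by the probe set that names this gene alone and has the highest mean over the 12 arrays. This gave 28 of the 39 HOX genes of RefSeq among 19775 genes in all. They were 1 of 11 genes of HOXA (HOXA2), all 10 of HOXB, all 9 of HOXC and 8 of 9 of HOXD. The other HOXA genes and HOXD3 were not analysed here.

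Total RNA of Hs578T and BT-20 cells was hybridised to HG-U133 Plus 2.0 arrays, with 6 arrays per line. Both lines were grown from breast tumours and were treated for 24 h with 200 nM of an oligonucleotide in a DOTAP liposomal transfection reagent. In each line 2 arrays came from cells given a double-stranded CDH13 oligonucleotide with methylated CpGs (M), and 2 from cells given its unmethylated form (U). These carry the set numbers 1 and 2 in the labels. A further array per line came from cells given the single-stranded CpG oligonucleotide ODN2006 and 1 from cells given its GpC control. Arrays of untreated or mock-transfected cells were not used here, so every level below is that of a transfected culture. Each line stands for 1 tumour, and replicate arrays are repeat cultures of that line.

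HOX proteins are homeodomain transcription factors that give cells their position along the body axis. The clusters lie on separate chromosomes, and genes of the same number in different clusters are paralogues. Low numbers mark anterior genes, which are active early and near the head, and high numbers mark posterior genes. Adult and tumour cells keep part of this code as a record of where in the body they came from, held in place by Polycomb and Trithorax chromatin proteins. HOX proteins bind DNA together with TALE homeodomain partners of the PBX, MEIS and PKNOX families, and retinoic acid is a classical inducer of the anterior genes.

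Values are log2 signals after GCRMA, on which genes without transcript lie near 2 to 3. A gene was said to have signal in an array at a value of 5 or above. Probe sets differ in how brightly they read, so levels are compared between arrays for 1 gene and never between genes. Array medians lay between 3.01 and 3.08, and genes correlated at 0.988 to 0.998 between arrays of a line and at 0.869 to 0.888 between lines. The lines differed in their cell type markers. Summed over 18 epithelial markers the log2 levels were 81.2 to 85.8 in Hs578T arrays and 189.39 to 192.43 in BT-20 arrays. Among these markers KRT14 went the other way, with a median of 13.33 in Hs578T against 3.65 in BT-20. Over 20 mesenchymal markers the sums were 258.58 to 263.91 in Hs578T and 94.62 to 104.16 in BT-20. These marker lists differ along with every HOX difference between the lines given below, and their part in it was not tested. Of 8 blood and endothelial markers, 6 were below 5 in every array, among them the pan-leukocyte gene PTPRC, while the endothelial genes CDH5 and PECAM1 had signal, CDH5 at 2.62 to 2.69 in Hs578T and 7.28 to 9.48 in BT-20, and PECAM1 at 4.08 to 6.69 in Hs578T and 2.56 to 2.97 in BT-20.

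Signal was confined to HOXB and HOXC in all arrays but 2. In all 6 Hs578T arrays 5 members had signal, namely HOXB3, HOXB6, HOXC4, HOXC6 and HOXC10. In all 6 BT-20 arrays 8 members had it, namely HOXB3, HOXB5, HOXB6, HOXB7, HOXC6, HOXC10, HOXC11 and HOXC13. The lists shared 4 genes, which is 4 of the 5 in Hs578T and 4 of the 8 in BT-20. The counts turn on the signal level, at 9 in each line with a level of 4, and at 5 in Hs578T and 6 in BT-20 with a level of 6. Over all 19775 genes, 45.2% were at 5 or above in all Hs578T arrays and 45.3% in all BT-20 arrays. Below 5 in every array were 17 of the 28 members, among them the whole measured HOXD cluster. The arrays read RNA of whole cultures, so fewer cells with a transcript and less of it per cell cannot be told apart.

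**Figure D1:**
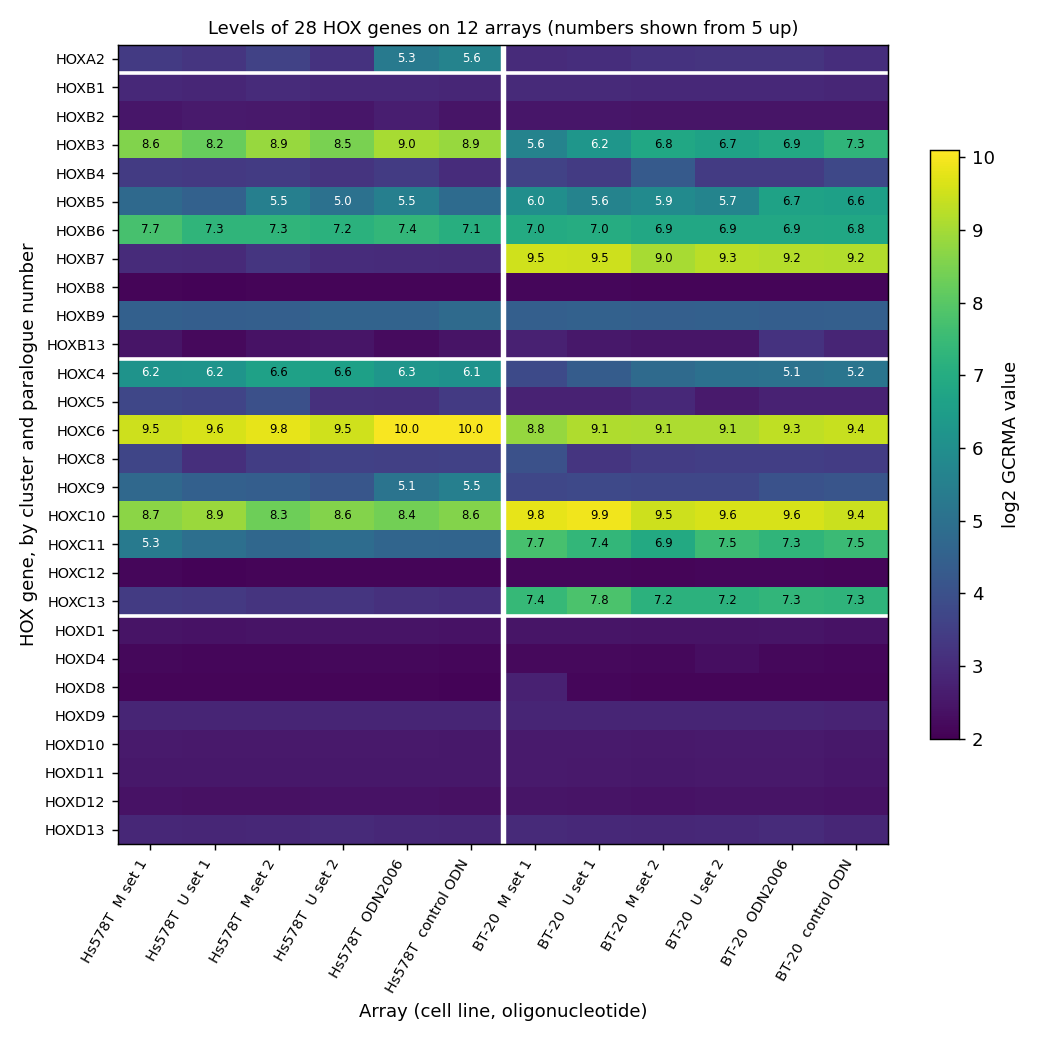
Log2 GCRMA value of each of the 28 HOX genes (rows, by cluster and paralogue number) in the 12 arrays (columns, Hs578T left and BT-20 right), with values printed where they reach 5. HOXB7, HOXC11 and HOXC13 stand out in BT-20, HOXB3 and HOXC4 in Hs578T, and every HOXD row stays below 3.

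In the M and U arrays, 9 members passed the filter on dim genes, a value of 5 or above in at least 2 of the 8 arrays, and were compared between the lines with limma and Benjamini-Hochberg adjustment over all 10410 genes tested. All 9 were called at an adjusted p under 0.05, with 4 higher and 5 lower in Hs578T. HOXB7, HOXC11 and HOXC13 passed the filter through their BT-20 arrays and HOXC4 through its Hs578T arrays, so these 4 had to differ once they passed. They are given below with no p-value for this comparison. These lines differ in most genes, since 74.6% of all genes tested were called, 34.4% higher and 40.2% lower, so the share called says little about HOX genes. The median size of the difference was 1.90 log2 units over the 9 members and 0.82 over all genes tested. The 1.90 is the value of HOXC4, which had to differ and came to 1.39 with values under 5 raised to 5. These medians therefore do not show that HOX genes differ more than other genes. The 6 Hs578T and 6 BT-20 arrays did not overlap for any of the 9, and the other 19 members did not pass the filter in the M and U arrays. Over all 12 arrays 11 members passed it, these 9 with HOXC9, which did not overlap, and HOXA2, which did. Of the 10543 genes that passed it there, 65.0% did not overlap (29.1% with Hs578T above and 35.9% with it below).

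The lines differed most in HOXB7, a central HOXB gene whose excess in breast cancer cells is known to raise fibroblast growth factor 2. Its lowest, median and highest log2 values were 2.97, 3.00 and 3.24 in Hs578T, against 9.03, 9.24 and 9.50 in BT-20. Every Hs578T array was at background and every BT-20 array well above it. The difference in the M and U arrays was -6.26 (SE 0.14), given with no test because HOXB7 passed the filter only through its BT-20 arrays. With values under 5 raised to 5, since background gives only a bound, HOXB7 was at least 20.0-fold lower in Hs578T. Both other probe sets of HOXB7 gave the same direction, at -4.48 and -6.80.

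The neighbours of HOXB7 went separate ways. HOXB3, an anterior gene of hindbrain patterning that also acts in blood progenitors, had 8.21, 8.71 and 9.03 as lowest, median and highest log2 value in Hs578T, against 5.63, 6.75 and 7.31 in BT-20. It was higher in Hs578T by 2.19 (SE 0.27, adjusted p = 0.000311, limma), with signal in both lines. Its BT-20 arrays spread over more than 1 log2 unit, with both set 1 arrays (5.63 for M and 6.25 for U) below the other 4. A second HOXB3 probe set stayed between 3.58 and 4.13 in all arrays and showed no difference, so the result rests on 1 probe set.

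HOXB5, active in the developing gut wall and vessels, had 4.52, 4.94 and 5.50 in Hs578T, against 5.62, 5.94 and 6.66 in BT-20. Its Hs578T arrays straddled the signal level, with 3 of 6 at or above 5. It was lower in Hs578T, with a difference of -0.83 (SE 0.19, adjusted p = 0.00663, limma). A second HOXB5 probe set stayed at 2.51 to 3.21 in all arrays, so the result rests on 1 probe set. HOXB6, used as a mark of lateral plate mesoderm in the mouse, had 7.09, 7.31 and 7.74 in Hs578T, against 6.84, 6.87 and 7.01 in BT-20, a difference of 0.45 (SE 0.12, adjusted p = 0.0139, limma). The groups lay close, and the call did not hold in every scaling of the arrays. With quantile normalization HOXB6 stayed at 0.47 (adjusted p = 0.00689, limma). Centring each array on the median level of 11 housekeeping genes moved the line differences of all genes by -0.45 in these arrays. HOXB6 then came to 0.00 (adjusted p = 0.982). That median level was the level of PGK1, which was itself higher in Hs578T by 0.45 (adjusted p = 0.00451, limma). The median difference of the 11 genes was -0.05, so this centring rests on 1 gene that differed between the lines. Within set 2 alone HOXB6 was 0.37 (adjusted p = 0.0572). A second HOXB6 probe set stayed at 2.28 to 2.45 in all arrays, so the result rests on 1 probe set.

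The rest of HOXB was dim in both lines. HOXB4, known for expanding blood stem cells, did not pass 3.41 in Hs578T and 4.28 in BT-20. HOXB9, which with its paralogues is needed for mammary gland growth in the mouse, lay between 4.44 and 4.80 in Hs578T and between 4.44 and 4.50 in BT-20. HOXB1, HOXB2, HOXB8 and the prostate gene HOXB13 stayed at or below 3.19 in every array. HOXB7 in BT-20 thus had signal directly beside a HOXB8 probe set at 2.10 to 2.14, and a second HOXB8 probe set was lower still.

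In HOXC the direction turned along the cluster. HOXC4 and HOXC6 were higher in Hs578T and HOXC10, HOXC11 and HOXC13 were lower. HOXC4, a gene of the neck and upper trunk that also acts in B cells, had 6.12, 6.22 and 6.63 in Hs578T, against 3.82, 4.90 and 5.16 in BT-20. All Hs578T arrays had signal, while in BT-20 only the ODN2006 array (5.07) and its control (5.16) did. The difference in the M and U arrays was 1.90 (SE 0.27), or at least 2.63-fold higher in Hs578T with values under 5 raised to 5. HOXC5, the next gene, stayed between 3.09 and 3.97 in Hs578T and between 2.60 and 2.94 in BT-20. Its groups did not overlap, but all values were below the signal level and it was not tested.

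RefSeq gives HOXC4 and HOXC5 the same transcript start, and the printed window is shown because 1 of the 2 genes had signal and the other did not. It runs from 250 bases before to 50 after that start on the plus strand of chr12:54016638-54016937 (GRCh38.p14), is letter for letter the same in both entries, and holds 15 CpGs, beside a median of 14 over all 35116 promoters of that length in the table. It holds no match to the HOX-PBX composite site TGATNNAT on either strand and no TATAAA, so no letters are in capitals.
HOXC4 and HOXC5 shared promoter: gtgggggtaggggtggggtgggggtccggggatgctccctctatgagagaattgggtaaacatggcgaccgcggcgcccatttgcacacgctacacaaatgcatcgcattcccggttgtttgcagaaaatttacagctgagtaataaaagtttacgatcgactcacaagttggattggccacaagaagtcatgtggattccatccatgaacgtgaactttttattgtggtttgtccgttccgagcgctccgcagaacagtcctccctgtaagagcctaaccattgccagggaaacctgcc

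HOXC6, a thoracic gene often raised in prostate and breast tumours, had 9.47, 9.70 and 10.02 in Hs578T, against 8.82, 9.11 and 9.41 in BT-20. It had strong signal in both lines and was higher in Hs578T by 0.56 (SE 0.12, adjusted p = 0.00359, limma). Housekeeping centring reduced this to 0.12 (adjusted p = 0.485). HOXC8, which patterns thoracic vertebrae in the mouse, stayed at or below 4.02 in all arrays. HOXC9, which sets thoracic motor neuron identity in the mouse, reached 5 only in the Hs578T ODN arrays and is described further on.

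HOXC10, a lumbar gene, had 8.33, 8.60 and 8.87 in Hs578T, against 9.44, 9.60 and 9.91 in BT-20. Both lines had strong signal, and the gene was lower in Hs578T, with a difference of -1.08 (SE 0.15, adjusted p = 0.000473, limma). HOXC11, a lumbosacral gene, had 4.60, 4.78 and 5.29 in Hs578T, against 6.93, 7.43 and 7.74 in BT-20, a difference of -2.44 (SE 0.21). In Hs578T only the M array of set 1 reached the signal level. HOXC13, the most posterior gene of the cluster and a regulator of hair keratins, had 3.07, 3.23 and 3.42 in Hs578T, against 7.20, 7.29 and 7.81 in BT-20. It was at background in every Hs578T array, with a difference of -4.10 (SE 0.16). With values under 5 raised to 5, its level was at least 5.3-fold lower in Hs578T. HOXC12, which lies between HOXC11 and HOXC13, stayed between 2.09 and 2.15 in all arrays, so signal in BT-20 skipped a gene.

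The HOXC order can be written as a series. From HOXC4 to HOXC13 the difference of the 5 tested genes fell at each step, with a Spearman correlation between paralogue number and difference of -1.0 over 5 genes. It was -0.8 over 4 genes in HOXB, where HOXB5 and HOXB6 break the order, and -0.845 over all 9. The full HOXC order depends on which genes passed the filter. HOXC9, below 5 and not tested in the M and U arrays, had a difference of 0.70 there, above the 0.56 of HOXC6. In the ODN arrays, where HOXC9 (1.21) again lay above HOXC6 (0.64), the correlation was -0.829 over 6 HOXC genes and -0.706 over all 11. These genes share arrays, and neighbours in a cluster are not independent, so the values are descriptions. By class, the only tested anterior gene was higher in Hs578T, 3 central genes were higher and 2 lower, and all 3 posterior genes were lower. The medians were 0.45 for the central and -2.44 for the posterior genes, beside -0.09 over all genes tested. The posterior median is the value of HOXC11. HOXC11 and HOXC13 passed the filter through their BT-20 arrays and so had to be lower. The same holds for HOXB7 among the central genes, and HOXC4 had to be higher. The class counts and medians, and the order above, thus rest in part on the filter. The central median is the value of HOXB6, and with housekeeping centring HOXB6 and HOXC6 were no longer called, which left HOXC4 as the only central gene called higher.

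**Figure D2:**
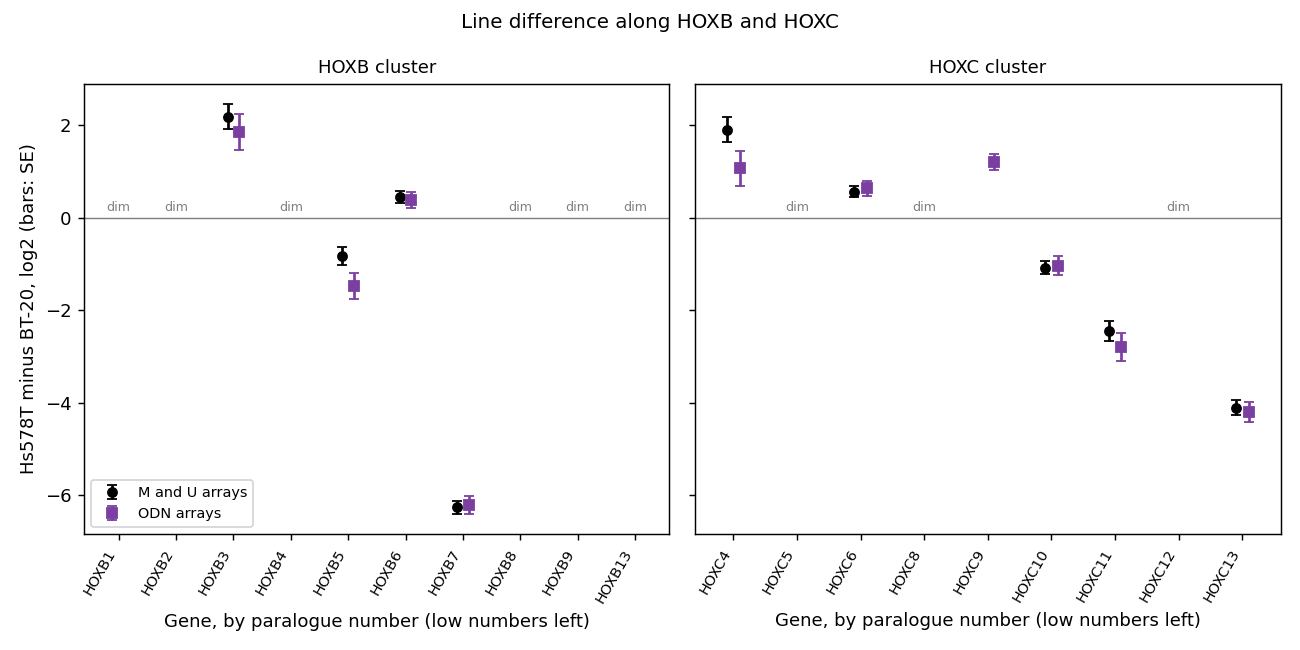
Hs578T minus BT-20 difference in log2 units (vertical, bars show the SE) for the genes of HOXB (left) and HOXC (right) by paralogue number, from the M and U arrays (circles) and the ODN arrays (squares), with "dim" where a gene was not tested in either. HOXB7 lies lowest at -6.26 and -6.20, and in HOXC the M and U differences run from 1.90 for HOXC4 to -4.10 for HOXC13.

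The sign in HOXC changed between HOXC6 and HOXC10, a stretch where HOXC8 and HOXC9 were below 5 in every M and U array and which also holds the microRNA gene MIR196A2, next to HOXC10. Clusters carry microRNAs of their own that are known to repress HOX transcripts, and their mature RNAs are shown here because MIR196A2 lies in this stretch. MIR10A lies between HOXB4 and HOXB5, and MIR196A1, which makes the same mature RNA as MIR196A2, lies beyond HOXB9. MIR196B lies in HOXA. Capitals mark the seed, bases 2 to 8, and the sequences are from RefSeq (GRCh38.p14).
miR-10a-5p: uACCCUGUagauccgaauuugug
miR-196a-5p: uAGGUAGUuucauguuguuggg
miR-196b-5p: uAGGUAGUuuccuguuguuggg
miR-196a-5p and miR-196b-5p share a seed, and miR-196a is known to cut the HOXB8 transcript. A probe set named for MIR10A read 2.59 to 2.65 in all 12 arrays, with no signal in either line, and mature microRNAs were not measured on these arrays.

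The long noncoding RNA HOTAIR is transcribed from the opposite strand between HOXC11 and HOXC12 and is known to bind Polycomb proteins and to act on HOXD in human fibroblasts. HOTAIR had 2.89, 3.46 and 3.53 as lowest, median and highest log2 value in Hs578T, against 6.93, 7.69 and 8.33 in BT-20. Like HOXC13, it was below 5 in every Hs578T array and had signal in every BT-20 array, with a difference of -4.40 (SE 0.24). HOTAIR passed the filter only through its BT-20 arrays, so it had to differ and the difference is given with no test. It was the only one of 12 noncoding HOX cluster genes measured that passed the filter, and the other 11 were below 5 in every array.

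All 8 HOXD genes measured were below 3 in every array of both lines, from 2.09 to 2.96 in Hs578T and from 2.10 to 2.99 in BT-20. They include HOXD13 and its neighbours, which pattern digits, and HOXD10, known as a target of miR-10b in metastatic breast cancer cells. HOTAIR was thus high in BT-20 and at background in Hs578T, while HOXD lay at background in both lines. The genes right beside the cluster had signal in every array of both lines. LNPK, beyond HOXD13, had a median level of 8.99 in Hs578T, against 9.01 in BT-20, and MTX2, beyond HOXD1, had 9.93 in Hs578T, against 11.29 in BT-20.

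The ODN arrays, which the comparison above did not use, gave the lines a second reading. There 11 members passed the filter over all 12 arrays, and limma called 5 higher and 5 lower in Hs578T, beside 67.3% of 10543 genes called (29.7% higher and 37.6% lower). Each ODN group is 1 array, so the spread came from the M and U groups and the single arrays were assumed to vary like them. HOXB7 (-6.20), HOXC13 (-4.19), HOXC11 (-2.79), HOXB5 (-1.47) and HOXC10 (-1.04) were lower, and HOXB3 (1.85), HOXC4 (1.07) and HOXC6 (0.64) higher, each in the direction of the M and U arrays. The other 2 counted as higher, HOXA2 and HOXC9, passed the filter only through the Hs578T ODN arrays, so their calls carry no weight and they are given below by their values. Among those counted as lower, HOXB7, HOXC11 and HOXC13 passed it through their BT-20 arrays. They had to differ, so their calls carry no weight either. HOXB6 was 0.38 with an adjusted p of 0.0976 and turned to -0.16 with housekeeping centring, which moved all line differences by -0.54 here. HOXC4 had an adjusted p of 0.0417, which became 0.12 without the filter on dim genes and 0.289 with housekeeping centring. HOXC6, with an adjusted p of 0.0116, came to 0.10 (adjusted p = 0.665) with the same centring.

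**Figure D3:**
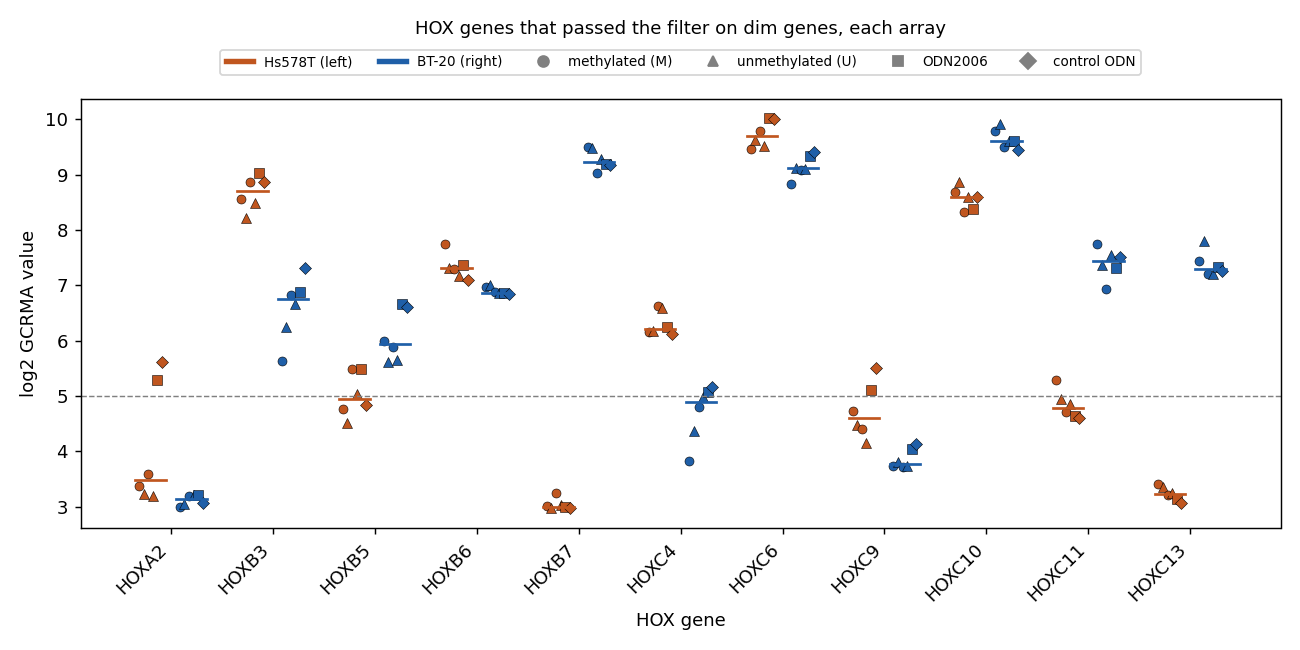
Log2 GCRMA value of the 11 HOX genes that passed the filter, 1 point per array (Hs578T left and BT-20 right of each gene name, symbols give the oligonucleotide, short lines the median of 6 arrays, the dashed line the signal level of 5). HOXB7 and HOXC13 show no overlap between background in Hs578T and signal in BT-20, and HOXA2 splits within Hs578T, with both ODN arrays above 5 and the M and U arrays below 3.7.

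HOXA2, which patterns the hindbrain and the second pharyngeal arch, differed most between the treatments among the members tested. It had 5.29 with ODN2006 and 5.61 with the control ODN in Hs578T, against 3.38 and 3.60 with M and 3.24 and 3.20 with U. In BT-20 it had 3.21 with ODN2006 and 3.08 with the control ODN, against 3.00 and 3.19 with M and 3.06 and 3.21 with U. Both ODN arrays of Hs578T had signal and the other 10 arrays did not. In a comparison chosen after seeing the data, the ODN arrays were set against the M and U arrays of set 2, which carry the same array code. In Hs578T 9.03% of 10375 genes were called (3.87% higher and 5.16% lower). The HOXA2 difference there was 2.05, or at least 1.37-fold with values under 5 raised to 5. It is given as a description with no test, since HOXA2 passed the filter only through the arrays in which it was high, and did not pass without either of them.

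HOXC9 did likewise on a smaller scale. It had 5.11 with ODN2006 and 5.50 with the control ODN in Hs578T, against 4.73 and 4.40 with M and 4.48 and 4.16 with U, and in BT-20 it had 4.05 and 4.14 in the ODN arrays, against 3.71 to 3.80 with M and U. The Hs578T difference was 1.02, and 0.30 with values under 5 raised to 5, again with no test because HOXC9 passed the filter only through these ODN arrays. HOXC4 had a change of -0.43 in Hs578T (adjusted p = 0.0633), and passed at an adjusted p of 0.0378 once values under 5 were raised to 5. In BT-20 no gene was called in this comparison (0.0%, and 5.15% at an unadjusted p under 0.05), and the lowest p among members was that of HOXB5, which had 6.66 and 6.62 in the ODN arrays against 5.88 with M and 5.66 with U (difference 0.87, adjusted p = 0.702). Against all 8 M and U arrays, the HOXA2 line difference was 2.31 in the ODN arrays and 0.24 in the M and U arrays, which differ by 2.07, or by 0.45 with values raised to 5. A contrast of this kind was called for 0.304% of all genes, and HOXA2 gets no test in it for the same reason. The ODNs differ from M and U in sequence and strandedness, and no set number is given for the ODN cultures, so oligonucleotide and culture cannot be told apart. The gene was high with the GpC control as well as with ODN2006.

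The window around the RefSeq start of HOXA2 is shown because this gene had signal in Hs578T with the ODNs alone. It spans chr7:27102634-27102933 on the minus strand (GRCh38.p14), again with 250 bases before and 50 after the start, and holds 11 CpGs. Capitals mark its single match to the HOX-PBX composite site, TGATNNAT or its reverse complement ATNNATCA.
HOXA2 promoter: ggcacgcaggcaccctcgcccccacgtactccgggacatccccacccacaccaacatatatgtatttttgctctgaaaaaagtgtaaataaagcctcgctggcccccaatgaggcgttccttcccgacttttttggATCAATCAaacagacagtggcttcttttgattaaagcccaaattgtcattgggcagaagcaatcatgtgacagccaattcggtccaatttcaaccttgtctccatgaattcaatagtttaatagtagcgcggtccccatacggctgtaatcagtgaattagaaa
Such a match is found in 7.4% of the 35116 promoters of this length, and TATAAA, which is not in this window, in 11.5%. RefSeq promoter windows were matched by symbol for 11 of the 28 members. Beside HOXA2, those of HOXB1 and HOXD11 held 1 match each, and both genes were at background in all arrays.

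No HOX gene was called between the methylated and the unmethylated CDH13 oligonucleotide. With M against U, 0 of 9 members were called in either line, over the lines together or in the difference between lines, and 0.0% of all genes were. At an unadjusted p under 0.05 there were 0 members in each of these, beside 6.53%, 1.67%, 5.22% and 2.48% of genes. The largest member change in Hs578T was that of HOXB3, with 8.56 and 8.86 in M against 8.21 and 8.48 in U (0.37, SE 0.38, adjusted p = 0.944, limma). In BT-20 it was that of HOXC4, with 3.82 and 4.81 in M against 4.37 and 4.98 in U (-0.36, SE 0.38, adjusted p = 1, limma). For HOXB3 both M arrays lay above both U arrays, while for HOXC4 the groups overlapped and the sets lay further apart than M and U.

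ODN2006, a ligand of the DNA sensor TLR9, was set against its GpC control over both lines. No member of 11 was called, beside 0.00948% of 10543 genes, and at an unadjusted p under 0.05 there were 0 members and 4.65% of genes. HOXB5 had the largest difference, with 5.49 in the ODN2006 array against 4.84 in the control array of Hs578T, and 6.66 against 6.62 in BT-20 (0.35, SE 0.27, adjusted p = 0.999, limma). With 1 array per ODN and line, changes of this size could not be separated from the spread.

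**Figure D4:**
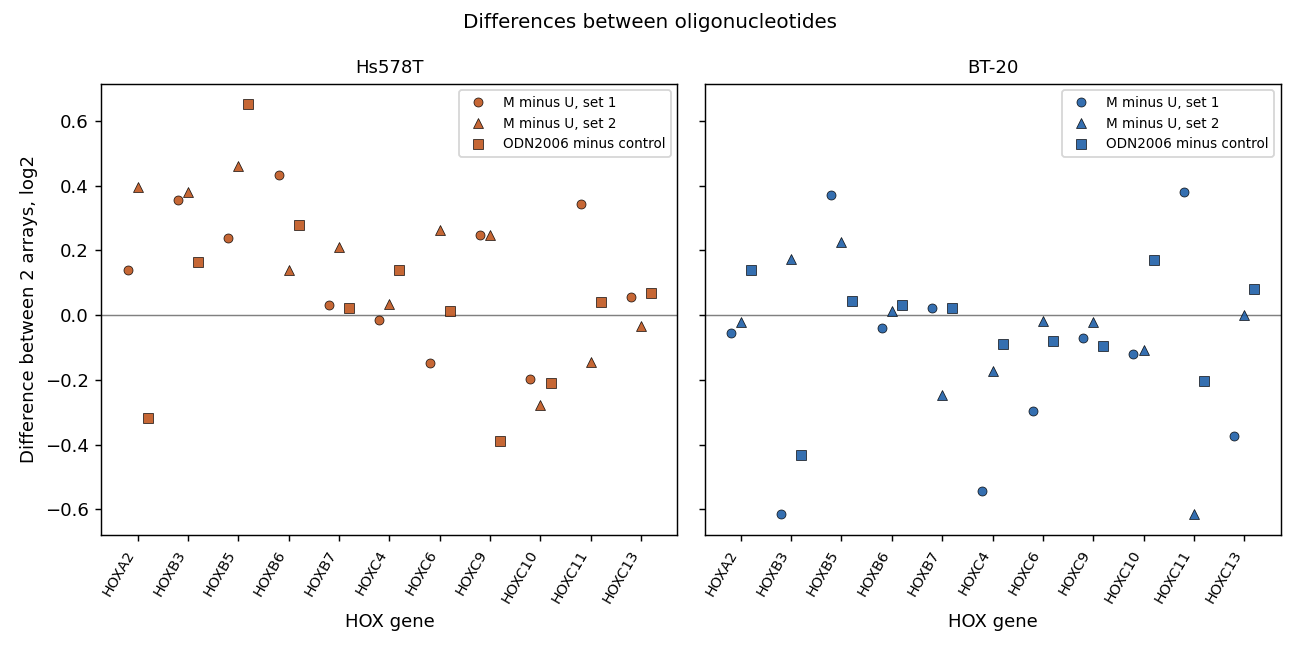
Differences between pairs of arrays in log2 units (M minus U in set 1 and in set 2, and ODN2006 minus its control) for the 11 HOX genes that passed the filter, in Hs578T (left) and BT-20 (right). Most points lie within 0.4 of 0, and HOXB3, HOXC6, HOXC11 and others change sign between sets in at least 1 line.

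The partners of HOX proteins and the genes of HOX regulation were compared in the same M and U arrays, where 74.6% of all genes were called, 34.4% higher and 40.2% lower, so the counts that follow are to be read beside these shares. Of 7 TALE cofactors tested, 3 were higher and 4 lower in Hs578T, a median difference of -1.02. That of PKNOX1 (0.39) was smaller than the shift of -0.45 that housekeeping centring brings. MEIS1, counted as higher, passed the filter only through its Hs578T arrays, so its call carries no weight. PKNOX2 had 6.38, 6.77 and 6.94 as lowest, median and highest log2 value in Hs578T, against 3.00, 3.22 and 3.33 in BT-20. The difference was 3.52 (SE 0.11), with no test because PKNOX2 passed the filter only through its Hs578T arrays. PBX3, a DNA-binding partner of HOX proteins, had 5.35, 5.86 and 6.34 in Hs578T, against 8.20, 8.40 and 8.49 in BT-20 (difference -2.58, adjusted p = 4.74e-06, limma). MEIS2 (-1.83) and the TALE repressor TGIF1 (-1.66) were lower too.

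The chromatin proteins that keep HOX genes off or on were measured at signal in nearly all arrays. All 27 Polycomb genes passed the filter, 10 higher and 6 lower in Hs578T, with a median of 0.19, a share called below that of all genes. PCGF5 was higher (2.00) and PHC3 was higher (1.32), while EED (-1.64), a core subunit of the complex that methylates histone H3, and PCGF3 (-1.09) were lower. Of 22 Trithorax genes 4 were higher and 12 lower, a share called close to that of all genes and a median of -0.56. Lower were MLLT3 (-1.88), DPY30 (-1.08), HCFC1 (-0.85) and WDR5 (-0.80), subunits or partners of MLL-type complexes. MLLT3 was below 5 in every Hs578T array and passed the filter only through its BT-20 arrays, so its difference is given with no test. Of 6 other regulators on the list that were tested, 3 were higher and 2 lower, with HMGA2 higher (2.85) and the boundary protein CTCF lower (-1.39). HMGA2 passed the filter through its Hs578T arrays and had to differ, so its difference is likewise given with no test.

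Of 14 retinoic acid genes 4 were higher and 9 lower in Hs578T, with a median of -1.92. These counts include genes that had to differ once they passed the filter. CRABP2, STRA6 and TGM2 were below 5 in every Hs578T array, and RARB and RBP4 in every BT-20 array. The receptor RARB had 8.24, 8.47 and 8.84 in Hs578T, against 1.52, 1.59 and 1.64 in BT-20, and was at background in every BT-20 array. The RARB difference of 7.02 is given with no test, since RARB passed the filter only through its Hs578T arrays. Its partner receptor RXRA (-2.67) and the retinaldehyde reductase DHRS3 (-2.65) were lower. The difference of the retinoid-induced TGM2 (-3.25) is given with no test, since TGM2 passed the filter only through its BT-20 arrays. None of the related ParaHOX, EVX and CDX genes measured, 7 in number, reached 5 in any array. Of 24 flanking genes tested around the clusters 8 were higher and 9 lower, with a median of 0.07, again about the share called of all genes. Next to HOXC, SMUG1 was lower (-0.96) and CBX5 higher (1.14), and CALCOCO1 at the other end was 0.22 (adjusted p = 0.7).

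**Figure D5:**
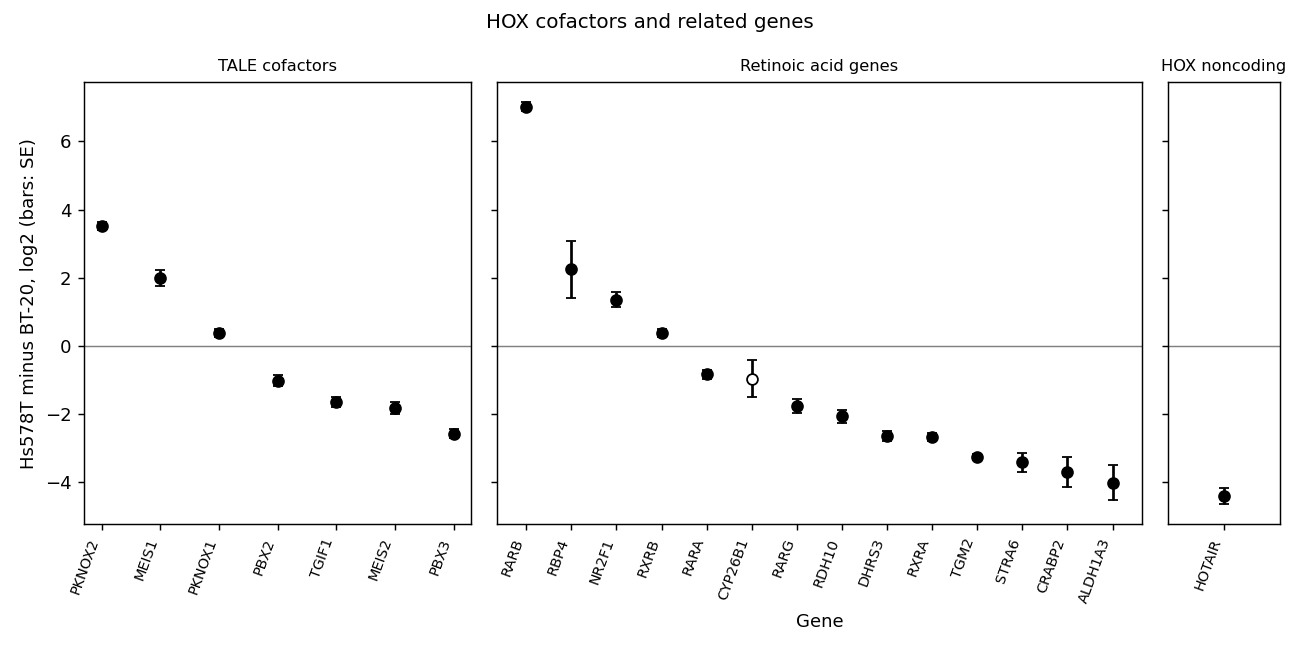
Hs578T minus BT-20 difference in log2 units in the M and U arrays (bars show the SE, filled points have an adjusted p under 0.05) for the TALE cofactors, the retinoic acid genes and the noncoding HOX cluster genes that passed the filter. PKNOX2 (3.52) and RARB (7.02) lie highest in their panels, and HOTAIR is at -4.40. Each of these passed the filter only through the line in which it is high. The same holds for MEIS1, RBP4, CRABP2, STRA6 and TGM2, so the filled points of all these genes are not tests.

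The directions of the HOX differences were the same in both sets. Within set 1 and within set 2 every one of the 9 members kept its direction, with HOXB7 at -6.50 and -6.01, HOXC13 at -4.23 and -3.97, HOXC11 at -2.43 and -2.46, HOXC10 at -1.08 in both, HOXB5 at -1.16 and -0.50, HOXB6 at 0.54 and 0.37, HOXC6 at 0.57 and 0.56, HOXC4 at 2.08 and 1.72 and HOXB3 at 2.45 and 1.92. Leaving out each of the 8 arrays in turn changed no call. Of the 16 probe sets of members that did not stand for their gene, 14 were below 5 in every array and the other 2 were those of HOXB7. A further 3 probe sets that name HOXD3 and HOXD4 together read 1.84 to 2.67.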

How the data were processed

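The authors deposited 1 log2 value per probe set and array, made by GCRMA in R 2.4 per the submitters' processing notes, for 54675 probe sets and 12 arrays. Whether the arrays were normalized together is not stated. The number of arrays limits the precision. Probe sets were named through GEO's platform table (41097 with 1 gene, 1801 with several, 11777 unnamed here), with symbols updated by gene ID from RefSeq for 41043. Each of 19775 genes was read from its probe set of highest mean. A gene entered a comparison if 2 or more of its arrays were at 5 or above, and was tested with limma 3.58.1 in R 4.3.3, as group means of line by oligonucleotide with eBayes, and Benjamini-Hochberg adjustment at 0.05. Labels call the sets biological replicates. Set numbers were taken to pair the arrays because M and U of a set deviated together. The correlation was 0.599 in Hs578T and 0.595 in BT-20 over 10410 genes. Each set also has its own array code, so culture and array code cannot be told apart in this. The main fit holds no term for the set, which entered only as a block among the alternatives. Members, gene lists and naming rule (all HOX members, up to 4 of each other list by smallest p, and flanking genes at a cluster edge) were chosen with earlier results of these data known. The fits were tested on simulated data. Alternatives were the filter, probe set rule, floor, scaling, eBayes form, block and left-out arrays.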

Additional observations from a re-analysis of the deposited data

Results flagged for a closer look

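HOXA2 was flagged because its level with the ODNs, relative to that with M and U, differed between the lines, by 2.07 log2 units more in Hs578T than in BT-20 (2.068 before rounding). The comparison was chosen after seeing the data and HOXA2 passed the filter only through the Hs578T ODN arrays, so this is a description with no test. With values under 5 raised to 5 the difference was 0.45.

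A lone array stood far from the other 5 of its line in 7 of 56 groups checked, and chance gives such a flag in about 1 of 20 groups. Only 1 of the 7 was in a member that passed the filter. This was HOXB7 in Hs578T, at 3.24 in the M array of set 2 and 2.97 to 3.03 in the others, all at background. In Hs578T the others were HOXB9 in the control ODN array (4.80, others 4.44 to 4.57), HOXC8 in the U array of set 1 (3.10, others 3.48 to 3.69) and HOXD10 in the control ODN array (2.53, others 2.56 to 2.57). In BT-20 they were HOXC8 in the M array of set 1 (4.02, others 3.24 to 3.50), HOXD8 in the same array (2.74, others 2.10 to 2.14) and HOXD4 in the U array of set 2 (2.30, others 2.15 to 2.20). All 7 values were below 5.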

How the results depend on the processing

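With housekeeping centring, members called higher in Hs578T came to 2 of 9 in the M and U arrays and 3 of 11 in the ODN arrays, beside 4 and 5 as deposited, with 5 lower in each case. HOXB6 in the ODN arrays reversed to -0.16 (adjusted p = 0.425). The centring followed the level of PGK1, which was itself 0.45 higher in Hs578T in the M and U arrays. A signal level of 4 in place of 5 gave 9 members in all Hs578T arrays and 9 in all BT-20 arrays. A level of 6 gave 5 and 6. With values under 5 raised to 5, no member was called higher (0) in the Hs578T ODN comparison or in the difference between lines, and 1, HOXC4, was called lower. Leaving out 1 array gave 0 to 2 members called higher there, with 0 without either ODN array because the filter then drops HOXA2 and HOXC9. The replicate block, as culture set or as set within line, kept 4 members higher and 5 lower between the lines and 0 for M against U, and changed no call. How many members lay above 0 with M against U was unstable, at 5 to 8 of 9 in Hs578T and 1 to 5 in BT-20 when single arrays were left out. The cause of the other shifts was not tested. All values rest on 1 array type, and genes near background give only bounds.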
